A study of Homo sapiens with 9 samples.

Results

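The BCL2 family genes described here are 10 of the 57338 genes in the expression table, taken by name: 5 anti-apoptotic members (BCL2, BCL2L1, BCL2L2, MCL1 and BCL2A1), the 2 effectors BAX and BAK1, and the 3 BH3-only members BID, BAD and BCL2L11. The rule names the genes and sets no threshold on a measured value. RNA was measured, by the labels, in HEK293T cells, a human embryonic kidney line carrying the SV40 large T antigen, that had been transfected with a plasmid that carried human protamine 1 (hPRM1) or protamine 2 (hPRM2) joined to enhanced green fluorescent protein (EGFP), or only the latter (empty vector). Cells with high EGFP signal were sorted 3 days after transfection, and each of the 3 conditions had 3 libraries made with a kit that primes at the 3′ ends of polyadenylated RNA. By their labels and the methods of the study, all groups share the cell line, transfection, EGFP and the sort, although marker values given further down go against this for the libraries labelled hPRM1. Nothing in the labels says whether replicates came from separate cultures, so that p-values measure the spread between these libraries only. By label, the comparisons ask how RNA of cell survival and death regulators differed once a sperm nuclear protein was expressed in a somatic cell. Protamine and marker values given further down go against this reading for the comparisons that use the libraries labelled hPRM1.

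BCL2 family proteins decide whether the outer mitochondrial membrane stays intact. BAX and BAK1 form pores in that membrane and release cytochrome c, which leads to caspase activation, the anti-apoptotic members hold them in check, and BH3-only proteins bind the anti-apoptotic members or activate the effectors. Much of this control acts on the proteins, through phosphorylation, cleavage and turnover, and is not seen in RNA.

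Values are RPKM, reads scaled to gene length and to the reads of the library. The libraries labelled hPRM1 went against their label: PRM1 was at 0 RPKM in all 9 libraries, whereas PRM2 was between 36130 and 71220 RPKM in the hPRM2 libraries and at 0 elsewhere. The 8 markers of HEK293T cells summed to 861.7 to 1024 RPKM with the empty vector, 646.5 to 1932 with hPRM2 and 0.933 to 3.24 in the libraries labelled hPRM1, where 6 of the 8 (LIN28B, IGF2BP1, PAX2, NEFM, TUBB2B and SALL4) were at 0. In these same libraries the 9 haemoglobin and erythroid markers summed to 2060000 to 2266000 RPKM against 3.09 to 18.2 with the empty vector. HBA1, HBA2 and HBB made up most of that sum, whereas HBD was at 0, 0 and 0.786 RPKM and EPB42 at 3.255, 0 and 0 RPKM. The 10 neutrophil and monocyte markers summed to 3922 to 5064 RPKM against 0.284 to 3.02, with FCGR3B at 0. The 9 lymphocyte markers summed to 702 to 976 RPKM against 0 in every empty vector library, and the 6 platelet markers to 335.9 to 594.9 against 16.9 to 32.1. PF4 (290.5, 460.2 and 415.6 RPKM) made up most of the platelet sum. GP9 stayed at 0.801 to 3.345 RPKM, and GP1BB overlapped the empty vector and was not called. With hPRM2 the 4 blood cell sums stayed at or below 20.7 RPKM. The library names in the labels number these 3 libraries consecutively and apart from the other 6, whose numbers form 1 run; whether that marks a batch is not stated, and a batch and the condition cannot be told apart for them. The part of these markers in the values below was not tested. The comparison of hPRM2 with the empty vector does not use them. Estimated reads on genes were 7930000 to 10790000 per empty vector library, 4210000 to 5860000 for those labelled hPRM1 and 1270000 to 2650000 for hPRM2. In bulk RNA, fewer cells of a type and less RNA per cell cannot be told apart.

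A gene was called different at an adjusted p of at most 0.05 (limma on log2(RPKM + 1), Benjamini-Hochberg over all genes tested) and a fold change of at least 2. For genes with low values, such fold changes come out smaller than the change itself. To be tested, a gene needed 1 RPKM in 3 or more of the 6 libraries compared, which 10 of 10 reached for hPRM1 against the empty vector, 8 for hPRM2 against the empty vector (not BCL2 and BCL2A1) and 9 for hPRM1 against hPRM2 (not BCL2L2). For hPRM1 against the empty vector, BCL2, BCL2A1 and BCL2L2 could reach that minimum through their high group alone. The same holds for BCL2, BCL2A1 and BCL2L1 in hPRM1 against hPRM2, and for BCL2L1 and BCL2L2 in hPRM2 against the empty vector. A gene with every library of its low group under 1 RPKM (BCL2L2 against the empty vector, BCL2A1 against hPRM2) was bound to differ, so the counts of called members below are descriptions.

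In the libraries labelled hPRM1, 3 of the 10 members were called higher than with the empty vector (BCL2L1, BCL2A1 and BCL2, all anti-apoptotic) where 12.9% of all tested genes were called higher. Another 3 were called lower (BAD, BAK1 and BCL2L2) where 62.5% of all tested genes were called lower. Over all tested genes the median log2 fold change was -1.72, against 1.97 for the 5 anti-apoptotic and -0.90 for the 5 pro-apoptotic members. The groups did not overlap for 4 members on the higher side, with 14.5% of all tested genes there, and for 4 on the lower side, with 66.4%. With hPRM2, by contrast, 0 of 8 tested members were called in either direction, where 1.36% of all tested genes were called higher and 1.37% lower. This comparison could miss large changes, as its spread was wide. An unadjusted limma p under 0.05 was reached by 1 member (BCL2L2, tested only through the empty vector) and by 25.5% of all tested genes. The per-gene unequal-variance test called 0% of all tested genes in this comparison, so its lack of calls says nothing about the members.

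Promoters from RefSeq (GRCh38.p14, 250 bases before to 50 after the start of a gene) were given for 8 of the 10 members; MCL1 and BCL2L2 had no entry. The 3 shown are those of the members with the largest rises and fall among the called ones in the libraries labelled hPRM1, chosen with BCL2A1, BCL2L1 and BAD values known, to let their sequence be read beside their levels. Capitals mark the motif TTCNNNGAA, the TATA box letters TATAAA, the CCAAT box and the GC box letters GGGCGG on either strand, and no marked motif overlaps another. The letters CACGTG were searched as well, and none of the 3 windows holds them. These motifs were chosen after the sequences had been seen. BCL2L1 and BAD had 2 promoter entries each and BID had 5, and only the first listed entry of a gene was used. The BCL2A1 promoter lies at chr15:79971147-79971446, that of BCL2L1 at chr20:31723914-31724213 and that of BAD at chr11:64284655-64284954, all on the minus strand and written 5′ to 3′.
BCL2A1: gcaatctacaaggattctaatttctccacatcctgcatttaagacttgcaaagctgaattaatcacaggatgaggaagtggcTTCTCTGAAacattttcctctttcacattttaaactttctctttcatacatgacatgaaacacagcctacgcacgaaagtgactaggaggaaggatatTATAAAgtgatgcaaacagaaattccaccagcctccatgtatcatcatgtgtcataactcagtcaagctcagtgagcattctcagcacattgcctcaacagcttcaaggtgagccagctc
BCL2L1: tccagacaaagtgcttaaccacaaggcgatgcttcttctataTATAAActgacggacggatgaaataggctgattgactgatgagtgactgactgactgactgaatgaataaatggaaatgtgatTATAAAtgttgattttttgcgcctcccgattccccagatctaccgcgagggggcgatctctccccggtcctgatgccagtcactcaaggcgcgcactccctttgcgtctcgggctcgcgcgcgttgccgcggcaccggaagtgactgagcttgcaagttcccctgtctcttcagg
BAD: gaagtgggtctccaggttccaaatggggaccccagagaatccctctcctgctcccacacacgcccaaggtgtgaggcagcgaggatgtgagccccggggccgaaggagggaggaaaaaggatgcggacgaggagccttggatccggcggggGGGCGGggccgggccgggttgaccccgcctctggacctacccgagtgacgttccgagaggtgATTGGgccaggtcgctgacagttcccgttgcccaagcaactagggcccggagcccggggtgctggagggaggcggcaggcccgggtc

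The BCL2A1 promoter held 2 CpG dinucleotides in 300 bases, fewer than the other members with an entry, and 11.5% of 27305 promoters of that length held fewer. BCL2L1 held 20 and BAD 21, close to each other, while BCL2, BID, BAX and BCL2L11 held 31, 37, 38 and 39 and BAK1 held 7, against a median of 14 over all promoters. BCL2A1 had TTCNNNGAA once, which 7.88% of all promoters hold, and TATAAA once, which 12% of promoters hold and BCL2L1 had at 2 places. BAD held CCAAT once (35.7% of all promoters) and GGGCGG once (44.6%). A match of letters is a description of the window only. The windows of BCL2A1, BCL2, BID and BCL2L11 lie wholly within the GENCODE gene bounds given below. RefSeq and GENCODE thus place the start of these genes differently, and their windows may not stand before the GENCODE start.

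BCL2L1 (ENSG00000171552, chr20:31664452-31723989, minus strand, GENCODE 29 on GRCh38) encodes BCL-XL, an anti-apoptotic protein of the outer mitochondrial membrane that late red cell precursors are known to depend on. It stood at 2.69, 2.96 and 3.04 RPKM with the empty vector, at 39.8, 37.0 and 37.2 RPKM in the libraries labelled hPRM1 and at 0.707, 0.736 and 2.64 RPKM with hPRM2. The 3 groups did not overlap, and the libraries labelled hPRM1 were the high ones. The mean was 37.98 ± 1.56 RPKM (SD, n = 3) against 2.90 ± 0.18 with the empty vector, a log2 fold change of 3.32 (SE 0.18, limma adjusted p = 1.02e-05). It was called higher at each of the 16 alternative settings. The hPRM2 values rested on at most 4.42, 2.21 and 10 reads, and their log2 difference from the empty vector of -0.82 (95% interval -2.03 to 0.40, limma adjusted p = 0.343) was not called.

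BCL2A1 (ENSG00000140379, chr15:79960889-79971446, minus strand) encodes an anti-apoptotic protein best known from white blood cells, where NF-kappaB and cytokine signals induce it. It was at 0, 1.94 and 0 RPKM with the empty vector, at 9.01, 3.94 and 5.13 RPKM in the libraries labelled hPRM1 and listed at 0 in the 3 hPRM2 libraries. All libraries labelled hPRM1 lay above all others. The log2 fold change against the empty vector was 2.23 (SE 0.51, limma adjusted p = 0.00577). The single value above 0 with the empty vector corresponds to at most 13 reads, and 3 reads would give 1.45 to 3.02 RPKM in the hPRM2 libraries, so that a level like that of empty vector replicate 2 could have been missed in 2 of them.

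BCL2 (ENSG00000171791, chr18:63123346-63320128, minus strand), the founding anti-apoptotic member, was the least even of the called members. It stood at 3.02, 0.632 and 0.0452 RPKM with the empty vector, at 4.56, 11.5 and 4.92 RPKM in the libraries labelled hPRM1 and at 0, 0 and 3.99 RPKM with hPRM2. The lowest library labelled hPRM1 was above the highest of each other group, but values within each of those groups ran from near 0 to over 3 RPKM. The log2 fold change against the empty vector was 1.97 (SE 0.57, limma adjusted p = 0.0161), and without hPRM1 replicate 2 it was 1.59 and no longer called (limma adjusted p = 0.0585). The call was also lost in the per-gene unequal-variance test (adjusted over all genes, 0.0736) and with a pseudocount of 5. A sense intronic transcript, AC022726.1, overlaps BCL2 on the same strand and reached 24.3 RPKM, so reads may be shared between them.

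MCL1 (ENSG00000143384, chr1:150574551-150579738, minus strand) encodes a short-lived anti-apoptotic protein that is lost quickly when translation or transcription stops. Per length it was the most abundant of the 10 members in 8 of the 9 libraries, and BAD was in the other one, empty vector replicate 3. In that library the estimate was at most 3080 reads for MCL1 and at most 767 for BAD, so that order rests on the division by length. MCL1 stood at 84.6, 77.7 and 77.5 RPKM with the empty vector, at 142, 159 and 147 RPKM in the libraries labelled hPRM1 and at 124, 57.0 and 54.1 RPKM with hPRM2. Again those labelled hPRM1 lay above all others, and hPRM2 replicate 1 stood apart from the other two of its group. Against the empty vector the log2 fold change was 0.89 (SE 0.15, limma adjusted p = 0.0013), which did not reach the 2-fold threshold, whereas that of hPRM2 was -0.13 (95% interval -1.11 to 0.84, limma adjusted p = 0.85). The direction of the hPRM2 difference turned under other scalings.

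BCL2L2 (ENSG00000129473, chr14:23298790-23311759, plus strand), which encodes the anti-apoptotic BCL-W, was the only anti-apoptotic member called lower in the libraries labelled hPRM1. It stood at 3.01, 3.17 and 3.32 RPKM with the empty vector, at 0.508, 0.354 and 0.114 RPKM in the libraries labelled hPRM1 and at 0, 0 and 0.741 RPKM with hPRM2. Every empty vector library was above the other 6, all of which stayed under 1 RPKM. In both comparisons BCL2L2 was thus tested only through the empty vector and was bound to differ, so its calls and p-values add nothing to its levels. The log2 fold change was -1.66 (SE 0.21, limma adjusted p = 0.000299) for the libraries labelled hPRM1, close to the median of all tested genes, and -1.79 (SE 0.42, limma adjusted p = 0.0683) for hPRM2. The hPRM2 difference was called in a fit of all 9 libraries (limma adjusted p = 0.0118) and without hPRM2 replicate 1 (limma adjusted p = 0.048), and in no other of its alternatives. These values rest on at most 9.99, 5 and 2 reads in the libraries labelled hPRM1 and on at most 0, 0 and 4 reads with hPRM2, against 80 to 120 with the empty vector. The read-through gene BCL2L2-PABPN1, which shares exons with it, was listed at 0 in all libraries. HOMEZ and PPP1R3E overlap BCL2L2 on the opposite strand and reached 4.53 and 5.04 RPKM.

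BAX (ENSG00000087088, chr19:48954815-48961798, plus strand) is the effector that moves from the cytosol to mitochondria when activated, and its RNA varied more within groups than between them. It stood at 7.21, 20.0 and 25.1 RPKM with the empty vector, at 5.65, 14.96 and 12.7 RPKM in the libraries labelled hPRM1 and at 48.9, 8.68 and 1.12 RPKM with hPRM2. The 3 groups overlapped. The log2 fold changes were -0.54 (95% interval -1.82 to 0.74, limma adjusted p = 0.376) for the libraries labelled hPRM1 and -0.71 (95% interval -3.43 to 2.01, limma adjusted p = 0.708) for hPRM2, whose lowest value rested on at most 2 reads. GENCODE 29 lists 13 BAX transcripts of 300 to 1358 bases, so that the length used for a library can move its RPKM.

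BAK1 (ENSG00000030110, chr6:33572547-33580293, minus strand), the effector that resides at mitochondria, was called lower in the libraries labelled hPRM1. It stood at 19.0, 23.9 and 38.2 RPKM with the empty vector, at 3.26, 4.80 and 4.17 RPKM in the libraries labelled hPRM1 and at 21.8, 3.76 and 10.6 RPKM with hPRM2. Those labelled hPRM1 were below the empty vector but overlapped hPRM2. Against the empty vector the log2 fold change was -2.42 (SE 0.30, limma adjusted p = 0.000323), and that of hPRM2 was -1.32 (95% interval -2.93 to 0.29, limma adjusted p = 0.265).

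BAD (ENSG00000002330, chr11:64269830-64284704, minus strand) encodes a BH3-only protein that binds BCL-XL and is held in the cytosol by 14-3-3 proteins when phosphorylated. Per length it was the most abundant pro-apoptotic member with the empty vector, at 52.3, 72.5 and 78.4 RPKM. It fell to 5.08, 4.97 and 3.16 RPKM in the libraries labelled hPRM1, while hPRM2 gave 94.9, 41.6 and 29.5 RPKM. All those labelled hPRM1 lay below the other 6, which overlapped with each other. The mean was 4.41 ± 1.08 RPKM (SD, n = 3) against 67.7 ± 13.7 with the empty vector, a log2 fold change of -3.67 (SE 0.26, limma adjusted p = 2.65e-05). It was called lower at each of the 16 alternative settings. For hPRM2 the difference was -0.44 (95% interval -1.62 to 0.74, limma adjusted p = 0.587). GPR137 overlaps BAD on the opposite strand and reached 18.8 RPKM.

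BID (ENSG00000015475, chr22:17734138-17774770, minus strand), which caspase 8 cleaves to link death receptors to mitochondria, was called in none of the 3 comparisons as deposited. It stood at 16.6, 27.5 and 24.9 RPKM with the empty vector, at 14.97, 16.95 and 15.6 RPKM in the libraries labelled hPRM1 and at 35.7, 14.8 and 12.4 RPKM with hPRM2. The groups overlapped. The log2 fold changes were -0.48 (95% interval -1.06 to 0.09, limma adjusted p = 0.103) and -0.25 (95% interval -1.52 to 1.03, limma adjusted p = 0.785) for those labelled hPRM1 and for hPRM2, in that order.

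BCL2L11 (ENSG00000153094, chr2:111119378-111168447, plus strand) encodes BIM, a BH3-only protein that removes lymphocytes and cells deprived of growth factors. It stood at 5.40, 5.17 and 9.71 RPKM with the empty vector, at 2.61, 3.29 and 3.20 RPKM in the libraries labelled hPRM1 and at 0, 14.0 and 17.6 RPKM with hPRM2. All 3 libraries labelled hPRM1 were below the empty vector, and hPRM2 replicate 1 lay below all libraries while the other two of its group lay above all. The log2 fold change of the libraries labelled hPRM1 was -0.90 (SE 0.28, limma adjusted p = 0.021), short of 2-fold, and that of hPRM2 was -0.20 (95% interval -2.92 to 2.52, limma adjusted p = 0.921). Without hPRM2 replicate 1 the latter was 1.16 and not called. The lincRNA MIR4435-2HG overlaps BCL2L11 on the opposite strand and reached 53.8 RPKM.

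**Figure D1:**
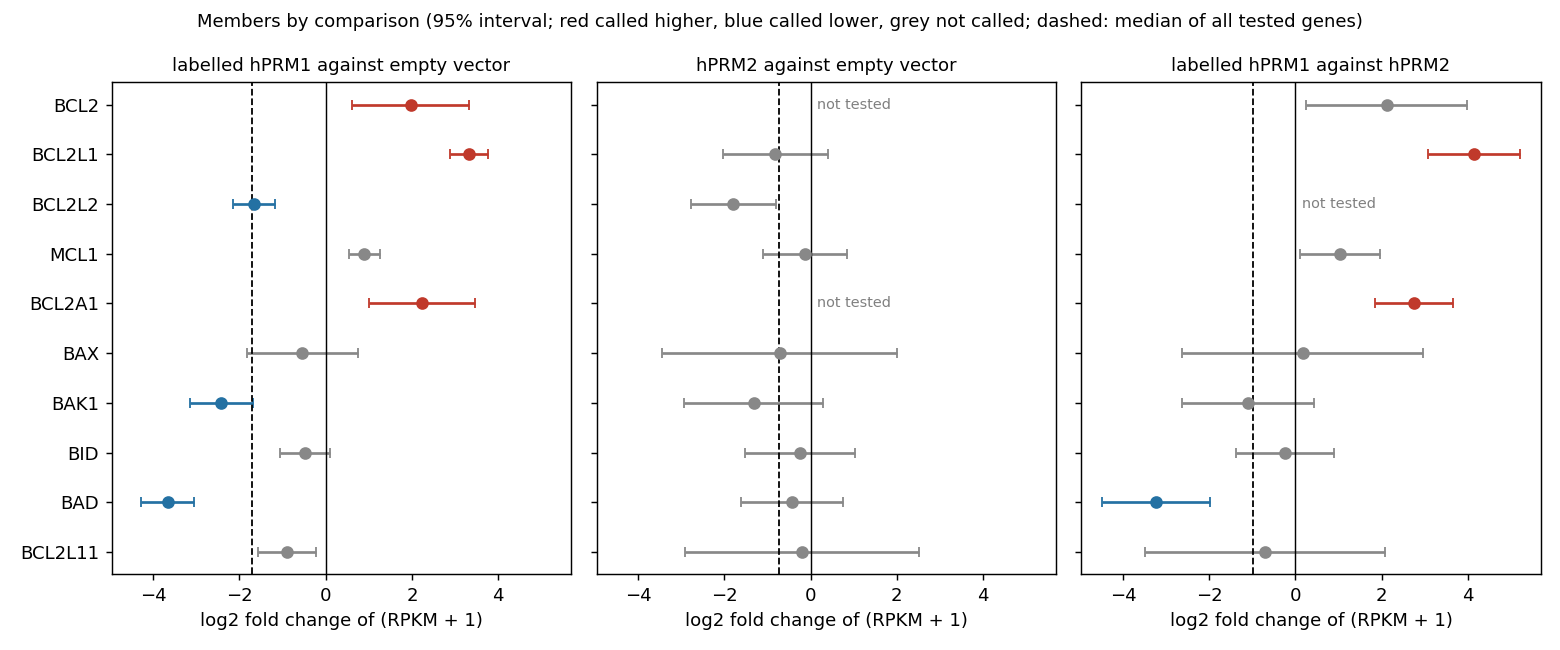
Log2 fold change of (RPKM + 1) of each member with its 95% interval from limma in the 3 comparisons, with members called higher in red, called lower in blue and not called in grey, and the median of all tested genes as a dashed line. BCL2L1 and BAD are the members whose intervals lie farthest from 0 in both comparisons that use the libraries labelled hPRM1; the BCL2A1 point against hPRM2 is a fitted value against libraries listed at 0, and no measure of size.

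The libraries labelled hPRM1 were also compared with hPRM2, and they are the same libraries as in the comparison with the empty vector. Of 9 tested members, 2 were called higher (BCL2L1 and BCL2A1), where 16.0% of all tested genes were, and 1 lower (BAD), where 37.0% were. BCL2A1 was tested there only through the libraries labelled hPRM1, and its call and p add nothing to its levels. BCL2L1 also reached the minimum through these libraries alone, with hPRM2 at 0.707, 0.736 and 2.64 RPKM. The groups did not overlap for 4 members on the higher side (19.0% of all tested genes) and for BAD on the lower side (43.1%). The log2 fold change was 4.14 for BCL2L1 (SE 0.44, limma adjusted p = 0.000594) and -3.23 for BAD (SE 0.51, limma adjusted p = 0.00271), and BCL2A1 (limma adjusted p = 0.00141) is given no fold because hPRM2 was listed at 0. MCL1 (1.03, limma adjusted p = 0.064) and BCL2 (2.12, limma adjusted p = 0.0583) were not called, although their groups did not overlap. In the comparison of hPRM2 with the empty vector, groups did not overlap for BCL2L1 and BCL2L2, both lower with hPRM2, where 29.9% of all tested genes were lower and 6.01% higher in that way.

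The scaling of the libraries set the direction of several members in the comparison of the libraries labelled hPRM1 with the empty vector. With median-of-ratios rescaling the median of all tested genes moved from -1.72 to -0.12, and the share of lower calls among all calls moved from 82.9% to 50.04% (55.8% with quantile normalization). Under that rescaling 6 members were called higher, with log2 fold changes of 5.10 for BCL2L1, 3.39 for BCL2A1, 3.29 for BCL2, 3.05 for MCL1, 1.59 for BID and 1.45 for BAX, and only BAD was called lower, at -1.66. Of all tested genes, 28.8% were called higher and 28.9% lower with this rescaling. BAK1 (-0.46) and BCL2L2 (-0.57) stayed lower but were not called. Set against the median of all tested genes in the values as deposited, the log2 difference was 5.04 for BCL2L1 and -1.95 for BAD.

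**Figure D2:**
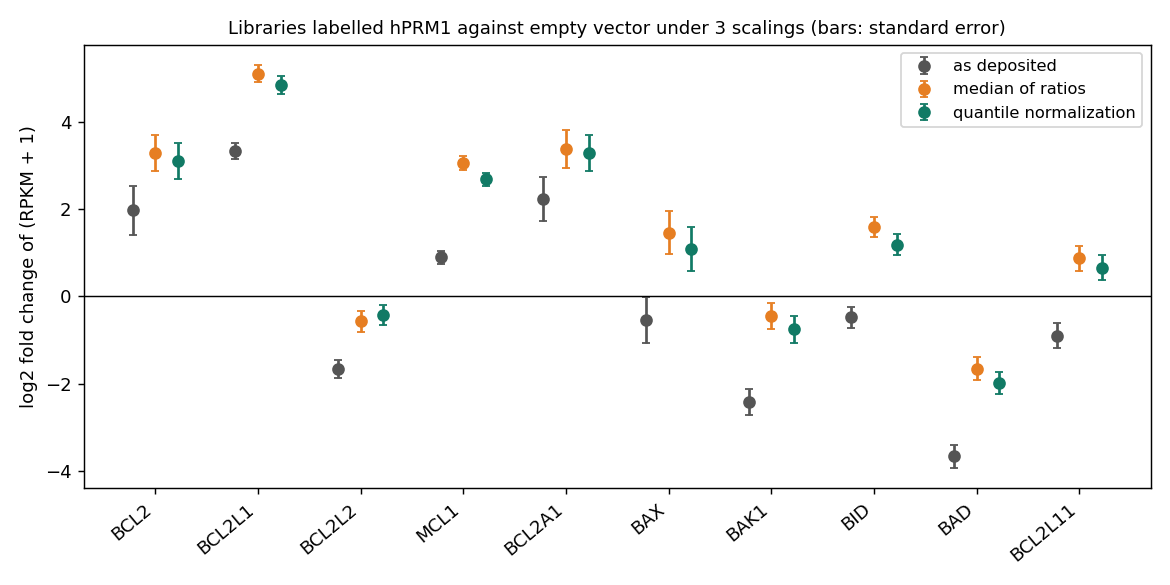
Log2 fold change of (RPKM + 1) of the 10 members, libraries labelled hPRM1 against empty vector, as deposited (grey), after median-of-ratios rescaling (orange) and after quantile normalization (green), with the standard error as a bar. BAX, BID and BCL2L11 cross 0 with the scaling, while BCL2L1, BCL2A1, BCL2 and MCL1 stay above it and BAD, BAK1 and BCL2L2 below it.

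The make-up of the family within a library does not depend on a common factor for that library. Of the summed RPKM of the 10 members, the anti-apoptotic members held 48.1, 36.7 and 32.25% with the empty vector, 86.1, 82.45 and 83.35% under the hPRM1 label and 38.3, 41.1 and 46.4% with hPRM2. Those labelled hPRM1 stood above the other 6, which overlapped. The total itself was similar as deposited, at 229.8 ± 33.5 RPKM (SD, n = 3) with the empty vector and 239.1 ± 15.2 where the label was hPRM1, with 199.9 ± 109.7 for hPRM2. Unlike the shares, this total depends on the scaling of the libraries. MCL1 took most of the anti-apoptotic share, with 35.5 ± 7.24%, 62.5 ± 0.59% and 39.8 ± 1.51% of the total in the same order. BCL2L1 held 1.27 ± 0.11% with the empty vector and 15.95 ± 1.52% under the hPRM1 label, whereas BAD held 29.3 ± 2.04% and 1.84 ± 0.45%. The log2 ratio of summed anti-apoptotic to pro-apoptotic RPKM was -0.66 ± 0.49 with the empty vector, 2.40 ± 0.21 in the libraries labelled hPRM1 and -0.47 ± 0.24 with hPRM2. Without MCL1 it was -4.14 ± 0.63, 0.43 ± 0.30 and -6.08 ± 2.52 in the same order. These shares are descriptions with no test, and they compare RNA per length, not protein. As the kit primes at 3′ ends, reads need not grow with gene length, and dividing by length raises short genes against long ones. The order of members and the sign of the ratio within a library can therefore depend on that division.

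**Figure D3:**
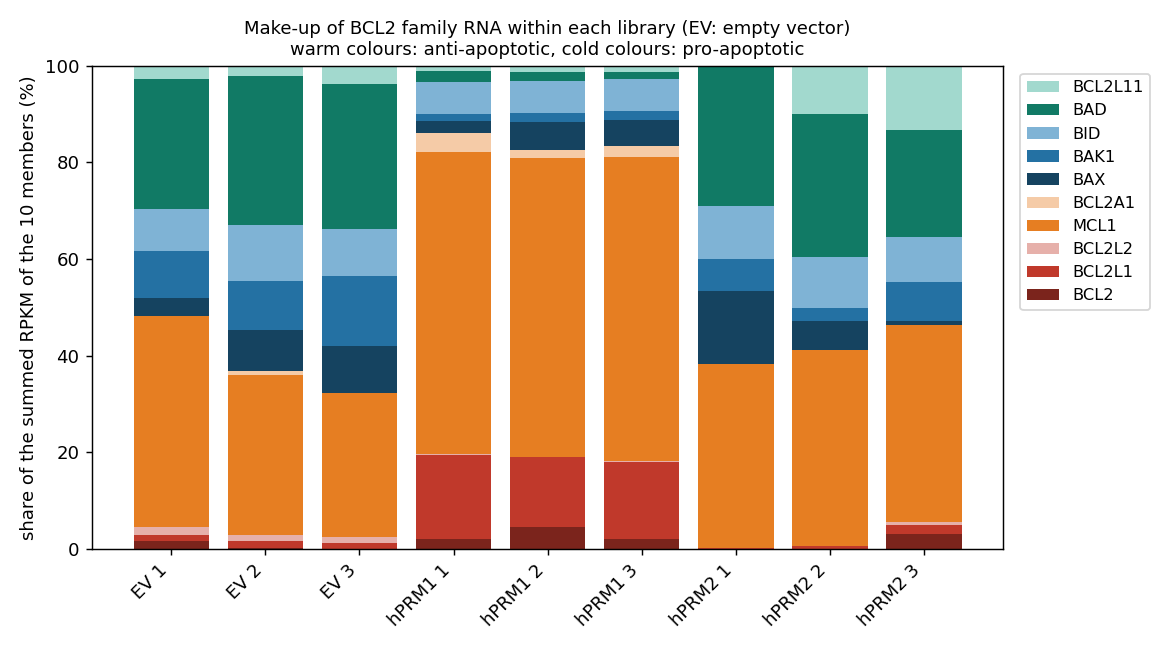
Share of each member in the summed RPKM of the 10 members, in percent, for each of the 9 libraries, with anti-apoptotic members in warm and pro-apoptotic members in cold colours. The anti-apoptotic share is 82.45 to 86.1% in the libraries labelled hPRM1 and 32.25 to 48.1% in the other 6.

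Genes around the family were followed in 4 lists. Of 11 further BCL2 family genes, 6 could be tested in the libraries labelled hPRM1 against the empty vector, of which 1 was called higher and 5 lower, beside 12.9% and 62.5% of all tested genes. BMF, a BH3-only gene, rose from 0.227, 0.501 and 0 RPKM to 1.31, 2.41 and 1.29 RPKM, a call lost at 4 of 15 alternatives. PMAIP1, which encodes the MCL1-binding NOXA, fell by 5.03 on the log2 scale (99.8, 75.6 and 59.1 RPKM to 1.004, 1.68 and 1.46 RPKM), BCL2L12, which overlaps IRF3 on the opposite strand, fell by 4.48 and BCL2L13 by 3.35. BCL2L10 was listed at 0 in all libraries, BCL2L14 at 0 with the empty vector and with hPRM2, and BOK at 0 with hPRM2. Among 19 genes that act at or after the mitochondrial step, 2 were called higher and 16 lower, again beside 12.9% and 62.5% of all tested genes. The inhibitor of apoptosis BIRC3 rose by 2.45 on the log2 scale and was listed at 0 with hPRM2, and APAF1, the scaffold of the apoptosome, was 1.76 higher (limma adjusted p = 0.0447) although its groups overlapped, and its call was lost at 8 of 16 alternatives. BIRC5, which encodes survivin and also serves in mitosis, fell by 7.27, CYCS (cytochrome c) by 5.72 and VDAC1, a channel of the outer membrane, by 4.45.

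Of 10 death receptor genes, which act upstream of BID, 5 were called higher, where 12.9% of all tested genes were, and 2 lower, where 62.5% were. TNFRSF10A, a TRAIL receptor, was listed at 0 in the 3 empty vector and 3 hPRM2 libraries and at 7.27, 13.6 and 9.01 RPKM in those labelled hPRM1. Like BMF and BIRC3, which stayed under 1 RPKM with the empty vector, it was tested only through the libraries labelled hPRM1 and was bound to differ. The same holds for TNFRSF10A and BIRC3 in the comparison with hPRM2. CFLAR, the inhibitor of caspase 8, rose by 2.66 on the log2 scale, from 17.6, 16.5 and 7.60 RPKM to 74.6, 103.8 and 87.8 RPKM, and the adaptor TRADD rose by 2.12. CASP8 and TNFRSF1A were the other two called higher, whereas the adaptor FADD fell by 1.65 and the TRAIL receptor TNFRSF10B by 1.21. Of 10 genes for MCL1 turnover and BAD control, 0 were called higher and 8 lower, among them the 14-3-3 genes YWHAE (-4.61), YWHAQ (-3.59) and YWHAG (-3.11), beside the same 12.9% and 62.5%. With median-of-ratios rescaling the counts called higher and lower became 1 and 3 for further family genes, 2 and 9 downstream, 7 and 0 for death receptors, and 2 and 3 for MCL1 and BAD control, with 28.8% and 28.9% over all tested genes. With hPRM2, limma called 0 genes of these 4 lists against the empty vector in either direction, where 1.36% of all tested genes were called higher and 1.37% lower. An unadjusted p under 0.05 was reached by 1 of 5, 8 of 18, 4 of 9 and 1 of 10 tested genes, in the order given above, and by 25.5% of all tested genes. Against hPRM2, the libraries labelled hPRM1 had 0 higher and 3 lower calls among further family genes, 1 and 11 downstream, 5 and 0 among death receptors, and 0 and 6 for MCL1 and BAD control, beside 16.0% higher and 37.0% lower over all tested genes. The largest of these log2 differences were those of PMAIP1 (-4.31), BCL2L12 (-3.84) and BCL2L13 (-2.25), of BIRC5 (-6.89), CYCS (-6.54) and VDAC2 (-3.62), of CASP8 (2.93) and TNFRSF1A (4.945), and of YWHAE (-5.33), YWHAQ (-3.37) and YWHAG (-2.06, a call lost at 7 of 16 alternatives), with TNFRSF10A and BIRC3 given no fold because hPRM2 was listed at 0.

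**Figure D4:**
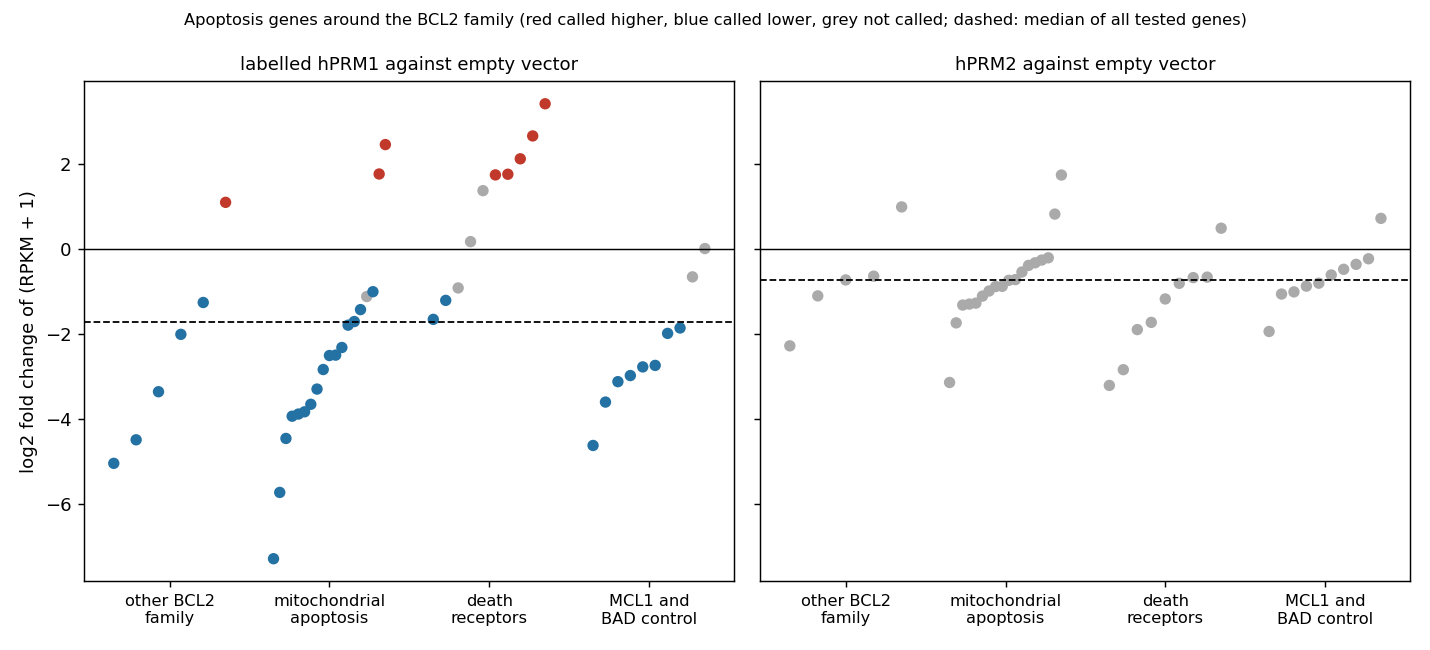
Log2 fold change of (RPKM + 1) of the tested genes of the 4 lists, with those labelled hPRM1 on the left and hPRM2 on the right, both against the empty vector, each point a gene, red if called higher, blue if called lower, grey if not called, with the median of all tested genes as a dashed line. Death receptor genes hold 5 of the 8 red points on the left, and no point is coloured on the right.

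The genes with the most similar course over the 9 libraries were found by the root mean square difference of centred log2(RPKM + 1) among 13464 genes, as a description. For BCL2L1 they were PGGHG (0.285), JAK3 (0.30) and PLEKHO2 (0.322), for BCL2A1 SNAI3 (0.214), TRIM22 (0.253) and S1PR5 (0.276), and for BCL2 REM2 (0.418), FAM209A (0.427) and EEF1DP3 (0.482). MCL1 was closest to FXYD5 (0.122), ACTB (0.227) and TAGLN2 (0.237), and BCL2L2 to SLC35F6 (0.16), HECTD4 (0.161) and DNMBP (0.191). Those nearest BAD were NDUFV2 (0.161), UQCC3 (0.181) and NDUFS3 (0.201), and those nearest BAK1 were ZDHHC12 (0.181), PDE6D (0.213) and C14orf119 (0.222). BID was closest to GCC1 (0.176), TTC39B (0.187) and SEC24C (0.194), BCL2L11 to GABARAPL1 (0.236), CLK1 (0.26) and SLC26A11 (0.29), and BAX, with the least close matches, to CDC42EP2 (0.519), APBA3 (0.52) and MTMR14 (0.545).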

How the data were processed

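The authors trimmed reads with cutadapt, aligned them with STAR and counted them with Salmon (FastQC for quality, build hg38, versions and annotation not given in the sources used here), removed mitochondrial genes, and deposited RPKM values, that is, counts divided by library total and gene length, for 57338 genes in 9 libraries. The table used here holds no counts, so no count test was run. Gene length may differ between libraries, which moves the RPKM of genes with many transcripts. Reads were estimated from the smallest steps of RPKM values with GENCODE 29 lengths less 250 bases, and reads behind a value are upper estimates from the longest transcript. They cover counting error only. Whether counting used the strand is not given in the sources used here, so genes that overlap a member on the opposite strand are named. Besides those given above, they are AC022726.2 at BCL2 (up to 1.72 RPKM), ABALON at BCL2L1 (up to 0.376 RPKM), and AL117381.1 at BCL2L1 and GGNBP1 at BAK1 (both listed at 0).

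Groups followed the labels. Comparisons used limma 3.58.1 in R 4.3.3 (lmFit, eBayes with trend and robust) on log2(RPKM + 1), over genes of at least 1 RPKM in 3 of 6 libraries, with 3 libraries per group, and all p-values are two-sided. Figures and other values came from Python 3.11.15 (pandas 2.3.3, numpy 2.4.6, matplotlib 3.10.9). The fit was tested on simulated data with 3 sizes of change. It recovered most large changes, but in both comparisons with hPRM2 it called none of those of the smallest size, which lies above the fold threshold, so an absent call there does not show an absent change.

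The members and gene lists were chosen with earlier results of these data known. The 10 members are named in full, and of each other list the called genes with the largest changes (at most 3 in each direction) in each comparison, with those listed at 0 in a whole group. Promoters and motifs were added after values were seen, because a protein sequence search that had been planned was not run here. Alternatives were other pseudocounts (0.1 and 5), no filter or a minimum of 10 RPKM, quantile normalization, median-of-ratios rescaling, one fit over all 9 libraries, no fold threshold, the replicate number as a block, a per-gene unequal-variance test and leaving out each library. Same-numbered libraries deviated together only weakly (correlations of -0.08 to 0.11), which does not show that they were unpaired. The labels do not say whether they were handled together, and the main fits did not use the numbers.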

Additional observations from a re-analysis of the deposited data

How the results depend on the processing

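BCL2L1 and BAD kept their direction and their call in both comparisons that use the libraries labelled hPRM1, at all 16 alternatives. At the minimum of 10 RPKM, every library of their low group was under that minimum. Both were then tested only through their high group, so their calls at that setting add nothing. Against the empty vector, 3 members were called higher as deposited, 1 with a pseudocount of 5 (BCL2 and BCL2A1 lost, at 0.93 and 0.96), 1 with a minimum of 10 RPKM (6 members tested), 6 with median-of-ratios rescaling, 5 with quantile normalization, 2 with the unequal-variance test (BCL2 lost, adjusted over all genes to 0.0736) and 2 to 3 when a library was left out. The 3 called lower, where 62.5% of all tested genes were, became 2 with a pseudocount of 5 (46.7%), as BCL2L2 was lost at -0.62. At a minimum of 10 RPKM BCL2L2 was not tested (71.2% of all tested genes called lower). The count was 1 with median-of-ratios rescaling (28.9%) or quantile normalization (32.3%), and 3 to 4 when a library was left out (60.0 to 63.4%). BCL2L11 was called lower as well with a pseudocount of 0.1 (-1.08, 63.5% of all tested genes) and with no fold threshold (65.6%). Against hPRM2, the 2 called higher (16.0% of all tested genes) became 1 at a minimum of 10 RPKM (5 tested, 17.2%). Median-of-ratios gave 5 (31.15%), quantile normalization 4 (24.6%) and the fit of all 9 libraries 4 (17.2%). Leaving out a library gave 2 to 3 (13.1 to 18.1%). The 1 called lower (37.0%) became 1 to 2 when a library was left out (27.7 to 47.3%). It was 2 without hPRM2 replicate 1 (BCL2L11, 47.3%) or replicate 2 (BAK1, 38.0%). For hPRM2 against the empty vector, 0 called lower (1.37% of all tested genes) became 1 (BCL2L2) in the fit of all 9 libraries (12.3%). It was 0 to 1 when a library was left out (0.0152 to 12.3%). The cause of these shifts was not tested, apart from fewer members being tested at the higher minimum.

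Directions turned as follows, on the log2 scale. In the libraries labelled hPRM1 against the empty vector, median-of-ratios and quantile normalization gave 0.87 and 0.65 for BCL2L11, 1.59 and 1.19 for BID, and 1.45 and 1.09 for BAX. Against hPRM2, median-of-ratios gave 0.59 for BCL2L11, 1.59 for BID and 0.56 for BAK1, quantile normalization 1.10 for BID, a pseudocount of 0.1 gave 0.09 for BCL2L11 and one of 5 gave -0.09 for BAX, and leaving out a library gave -2.06 to 0.05 for BCL2L11, -0.52 to 0.21 for BID and -0.96 to 1.32 for BAX. For hPRM2 against the empty vector, median-of-ratios gave 0.42 for MCL1, 0.11 for BAD, 0.33 for BCL2L11 and 0.29 for BID, quantile normalization 0.33 for BCL2L1, 0.06 for MCL1, 0.87 for BCL2L11 and 0.12 for BID, a pseudocount of 5 gave 0.16 for BCL2L11, and leaving out a library gave -0.52 to 0.08 for MCL1, -0.95 to 1.16 for BCL2L11, -0.69 to 0.04 for BID and -1.86 to 0.41 for BAX. None of the reversed hPRM2 values against the empty vector was called.

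The share of all tested genes called moved as well. For hPRM2 against the empty vector it was 2.74%, and 0.426% without a filter, 16.2% in the fit of all 9 libraries, 0% with the unequal-variance test (2206 genes at an unadjusted p under 0.05) and 0.0914 to 18.5% when a library was left out, the highest without hPRM2 replicate 1. It went from 75.4 to 47.0% without a filter for the libraries labelled hPRM1 against the empty vector, and from 53.0 to 24.8% without a filter and 29.7% with the unequal-variance test against hPRM2. With the replicate number as a block, hPRM2 calls against the empty vector went from 179 higher and 180 lower to 49 and 8 (0.434%). The counts of called members stayed at 3 higher and 3 lower, 0 and 0, and 2 and 1. Of all tested genes, 13.1% and 62.9%, 0.373% and 0.0609%, and 15.3% and 34.2% were called in the same order. The hPRM2 libraries, with the fewest reads on genes as estimated here, limit every statement on low members such as BCL2, BCL2L2 and BCL2A1.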
